A study of Rattus norvegicus with 24 samples.

Results

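The genes described here are the nuclear receptors of the rat liver. A list of 33 receptor genes was matched to the array by gene symbol, and a probe set was taken only where the platform annotation gave it that gene and no other. This found 31 of the 33 genes on 34 probe sets, out of 16856 genes on single-gene probe sets and 20917 probe sets in all. Nr2e3 and Thra had no single-gene probe set and are not analysed here. Esr1 had 2 probe sets and Rarb had 3, which are given separately because probe sets of a gene can differ. Pgr fell below the signal limit for testing, so 30 genes on 33 probe sets entered the tests.

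Livers came from 24 adult F2 females of the Sprague-Dawley rat strain, and each gave 1 array. The grandfather (F0) of a female was fed either chow or a high-fat diet (HFD), so there is a chow line and an HFD line. For 12 weeks the females themselves received chow or an HFD, whose fat supplied 42 or 45% of the energy by the labels. The 4 groups were 7 chow-line females on chow (GpatCD-CD), 6 chow-line females on the HFD (GpatCD-HF), 6 HFD-line females on chow (GpatHF-CD) and 5 HFD-line females on the HFD (GpatHF-HF). All were of the same sex and strain, and no allele or agent other than diet is named. No label ties a female to her litter or grandfather, and arrays were taken as independent.

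Nuclear receptors are transcription factors that bind DNA through a zinc-finger domain and, in most cases, change their activity when a small lipophilic ligand enters a pocket of the protein. In liver they sense oxysterols, fatty acids, bile acids, drugs, retinoids, thyroid hormone and steroids. Many pair with a retinoid X receptor (RXR) and recruit corepressors or coactivators, so a receptor's mRNA level is only 1 layer of its activity. Ligand-independent members include the HNF4 receptors, which hold hepatocyte gene expression in place, and the NR4A receptors, which are immediate early genes.

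The promoters of 3 receptors that the results below turn on are shown first. Nr1i3 is the receptor whose chow-line diet groups did not overlap, and Nr4a1 varied most between arrays of 1 group. On Nr4a2, the 4 arrays that the second principal component set apart read highest within their own groups. Each sequence runs from 250 bases before to 50 bases after the annotated gene start, from RefSeq's GRCr8 table, in the direction of the gene. Capitals mark TGACG on either strand, the core of the site bound by CREB-family factors, which is well known from NR4A promoters.
Nr1i3, chr13:86165170-86165469, plus strand: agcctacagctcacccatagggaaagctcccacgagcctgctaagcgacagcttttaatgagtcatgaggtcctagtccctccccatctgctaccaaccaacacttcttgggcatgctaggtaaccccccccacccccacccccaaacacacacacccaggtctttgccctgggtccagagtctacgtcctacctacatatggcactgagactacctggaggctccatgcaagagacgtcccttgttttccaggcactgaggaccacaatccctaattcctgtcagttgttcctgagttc
Nr4a1, chr7:134259888-134260187, plus strand: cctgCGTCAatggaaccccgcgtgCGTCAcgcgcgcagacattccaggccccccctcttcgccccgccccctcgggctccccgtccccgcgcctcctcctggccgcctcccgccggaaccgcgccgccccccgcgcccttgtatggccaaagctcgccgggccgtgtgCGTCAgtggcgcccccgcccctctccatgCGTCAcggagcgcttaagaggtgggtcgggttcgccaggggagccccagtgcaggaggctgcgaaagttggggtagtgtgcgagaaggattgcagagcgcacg
Nr4a2, chr3:62104838-62105137, minus strand: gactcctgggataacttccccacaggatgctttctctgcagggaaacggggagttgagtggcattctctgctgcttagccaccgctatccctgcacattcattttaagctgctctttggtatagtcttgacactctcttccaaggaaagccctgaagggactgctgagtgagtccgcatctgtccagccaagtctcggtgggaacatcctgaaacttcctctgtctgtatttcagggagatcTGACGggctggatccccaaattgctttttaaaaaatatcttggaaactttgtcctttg
The Nr4a1 promoter held 4 matches, which began 246, 226, 82 and 53 bases before the start. Of 33469 promoters of this length in the table, 21.2% held at least 1 match and 0.236% held 4 or more. The Nr4a2 promoter held 1 match, 8 bases before the start, and these letters were not in the Nr1i3 window. Of the members, 28 had 34 promoters in the table, and 7 of these held TGACG (Nr1h2, Nr2c1, Nr4a1, Nr4a2, Nr6a1, Rxrb and Thrb). AGGTCA, the half-site that many nuclear receptors bind, was searched on both strands too and stood in 3 of the 34 (Esrrg, Nr5a2 and Rarg), against 16.2% of all promoters. Neither motif contains the other on either strand. A match describes letters in this window only.

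The deposited intensities had array medians of 97.9 to 128, and all values below are log2(intensity + 16), so fold changes of dim probe sets are understated. As a check of the tissue label, 12 of 12 measured hepatocyte markers lay above the upper quartile of their own array on all 24 arrays, while Adipoq, Lep and Plin1, which define fat cells, lay below the median of every array (highest intensities 82.3, 54.3 and 101). Of the whole list of 10 adipose markers, which also holds genes that liver expresses such as Pck1 and Adipor2, 4 lay below the median and 3 above the upper quartile on every array. The growth protocol speaks of gonadal fat, whereas titles and tissue labels say liver. Arrays differed most along an axis that tracked their median signal (component 1, 19.1% of the variance, correlation of size 0.955 with the array median). Arrays 45, 28, 37 and 24 lay farthest out on that axis. Values below are not corrected for it unless quantile normalization or centring is named. A second principal component with 13.8% of the variance set arrays 21 and 25 (GpatCD-CD), 22 (GpatCD-HF) and 24 (GpatHF-HF) apart from the other 20. Receptor results that rest on arrays 21, 22, 24 and 25 are given with and without them. Female livers also hold other cells, and in bulk tissue fewer cells of a type cannot be told apart from less RNA per cell.

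The first comparison asks how a female's own HFD acted on receptor mRNA in each line. No receptor probe set passed an adjusted p of 0.05 in limma (Benjamini-Hochberg over 15687 probe sets), in the chow line (0 of 33, against 0.319% of all probe sets tested), in the HFD line (0 of 33, against 0.752%) or averaged over the lines (0 of 33, against 1.99%). At an unadjusted p under 0.05, 1 receptor probe set passed in the chow line (Nr1i3, 3.03% against 8.8% of all), 3 in the HFD line (both of Esr1, and Vdr, 9.09% against 15.8%) and 3 on average (the same names, 9.09% against 13.3%). Receptor mRNA was thus not set apart from the array as a whole by these counts. The intervals say how large a change could have been missed: on average over the lines, 32 of 33 probe sets had a 95% interval inside a 1.5-fold change either way (all probe sets tested, 96%), with Nr4a2 as the exception. Within the chow line 29 of 33 did so, and within the HFD line 26 of 33, against 92.7% and 87.3% of all. The probe sets whose intervals reached past that limit in the chow line were Nr1i3, Ppard, Nr4a1 and Nr4a2. Hnf4g and both Esr1 probe sets joined them in the HFD line. An interval can reach past the limit through its width or through the size of the difference.

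**Figure D1:**
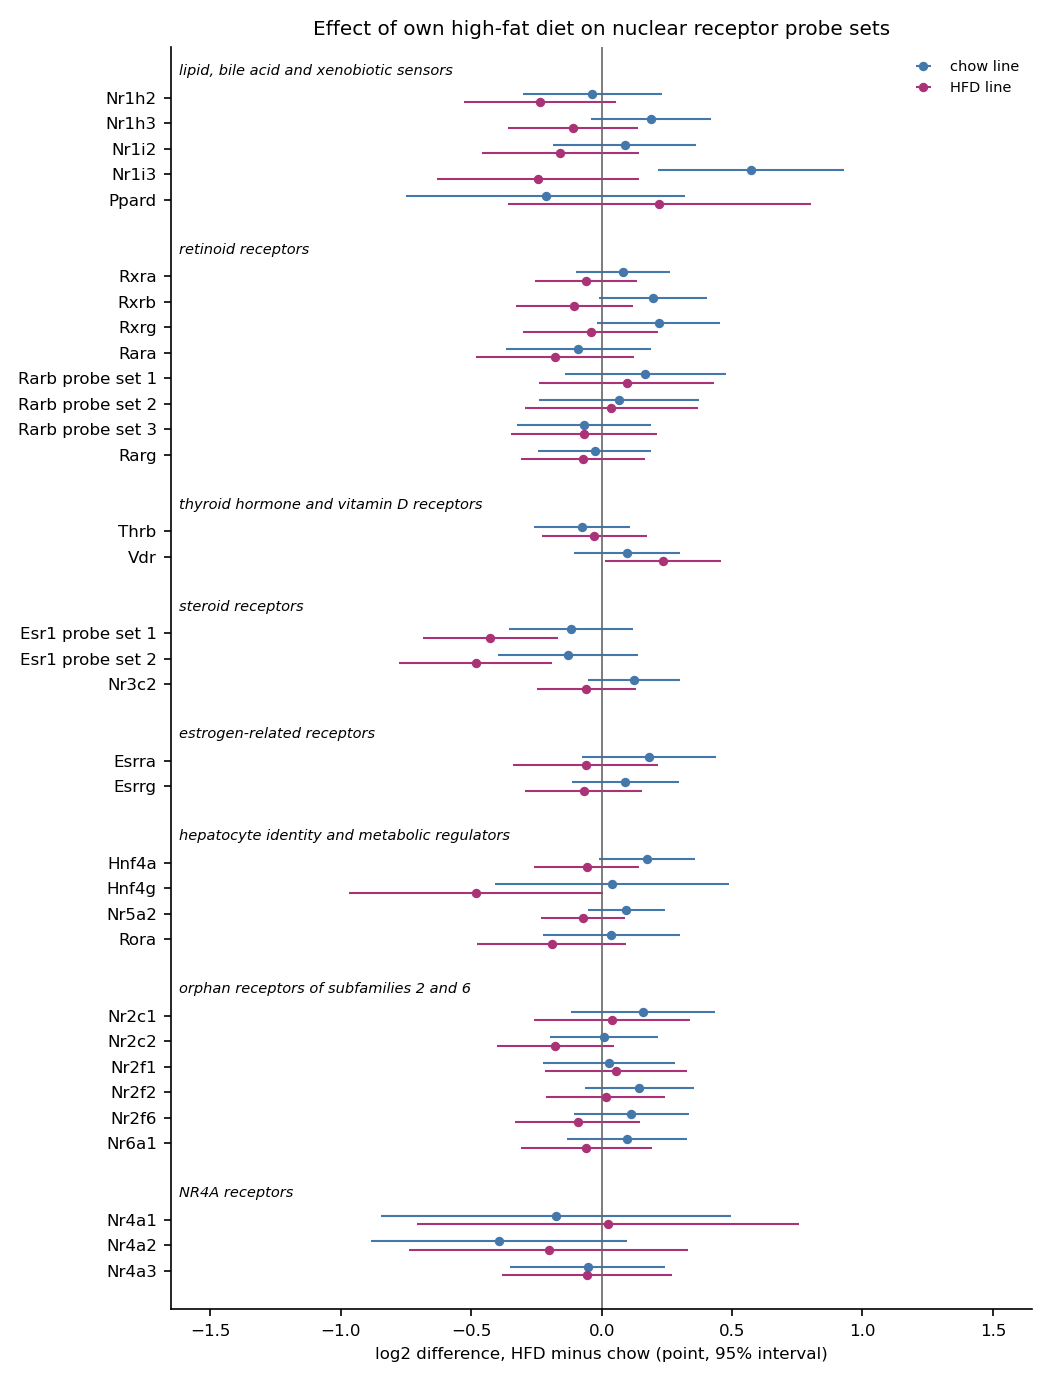
Own-diet difference in log2 signal (HFD minus chow) for 33 receptor probe sets, grouped by role, in the chow line (7 against 6 arrays) and the HFD line (6 against 5). Points are limma estimates and bars 95% intervals. Most intervals cover 0, and those of Nr1i3 in the chow line and of Vdr and both Esr1 probe sets in the HFD line do not.

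The direction of these small differences depended on scaling. Over the 30 tested genes (1 probe set each), the median own-diet difference was 0.08 in the chow line and -0.07 in the HFD line, beside 0.01 and -0.09 over all probe sets tested. By probe set, 22 of 33 lay above 0 in the chow line, 8 in the HFD line and 19 on average, against 54.4, 28.4 and 36% of all. In the HFD line 6 receptor genes lay above 0 and 24 below, which became 18 above and 12 below after quantile normalization, where the median of all probe sets was -0.003. In the chow line 20 of 30 lay above 0, and 19 of 30 after quantile normalization.

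The sensors of lipids and foreign compounds came to 5 genes. Nr1i3 encodes the constitutive androstane receptor (CAR), which switches on drug-metabolizing enzymes. Its signal in chow-line females on chow ran from 7.53 through a median of 7.91 to 8.17, and in the HFD-fed females of that line from 8.35 through 8.37 to 8.75. Every HFD array of the chow line thus lay above every chow array. In the HFD line it ran from 7.70 through 8.18 to 8.60 on chow, and the 5 HFD arrays read 7.27, 7.61, 7.92, 8.36 and 8.40. There the groups overlapped.

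Nr1i3 averaged 7.88 ± 0.26 (SD, n = 7) in GpatCD-CD, 8.45 ± 0.16 (n = 6) in GpatCD-HF, 8.16 ± 0.40 (n = 6) in GpatHF-CD and 7.91 ± 0.48 (n = 5) in GpatHF-HF. The chow-line difference was 0.57 ± 0.17 (standard error), or 1.49-fold, with a 95% interval of 0.22 to 0.93. Its unadjusted p was 0.00275 and its adjusted p 0.232, and over the other settings the adjusted p ranged from 0.0564 to 0.444. An exact two-sided permutation test over the 13 arrays gave p = 0.00117, the smallest that 1716 regroupings allow. It was 0.00699 after Benjamini-Hochberg adjustment over 6 such tests of receptors singled out after their values were seen. Groups that do not overlap always give this smallest p, so the test adds nothing to the non-overlap. The adjustment over 6 tests does not cover the choice among 33 probe sets. Non-overlap of the 2 groups was found for 0.338% of all probe sets tested in this comparison, and for 1 of the 33 receptor probe sets. Without arrays 21, 22, 24 and 25 the difference was 0.65. In the HFD line the difference was -0.25 ± 0.19 with a 95% interval of -0.63 to 0.14. It was -0.09 without array 24, the lowest of its group. Leaving out all 4 arrays removes only array 24 from this comparison and must give the same value.

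**Figure D2:**
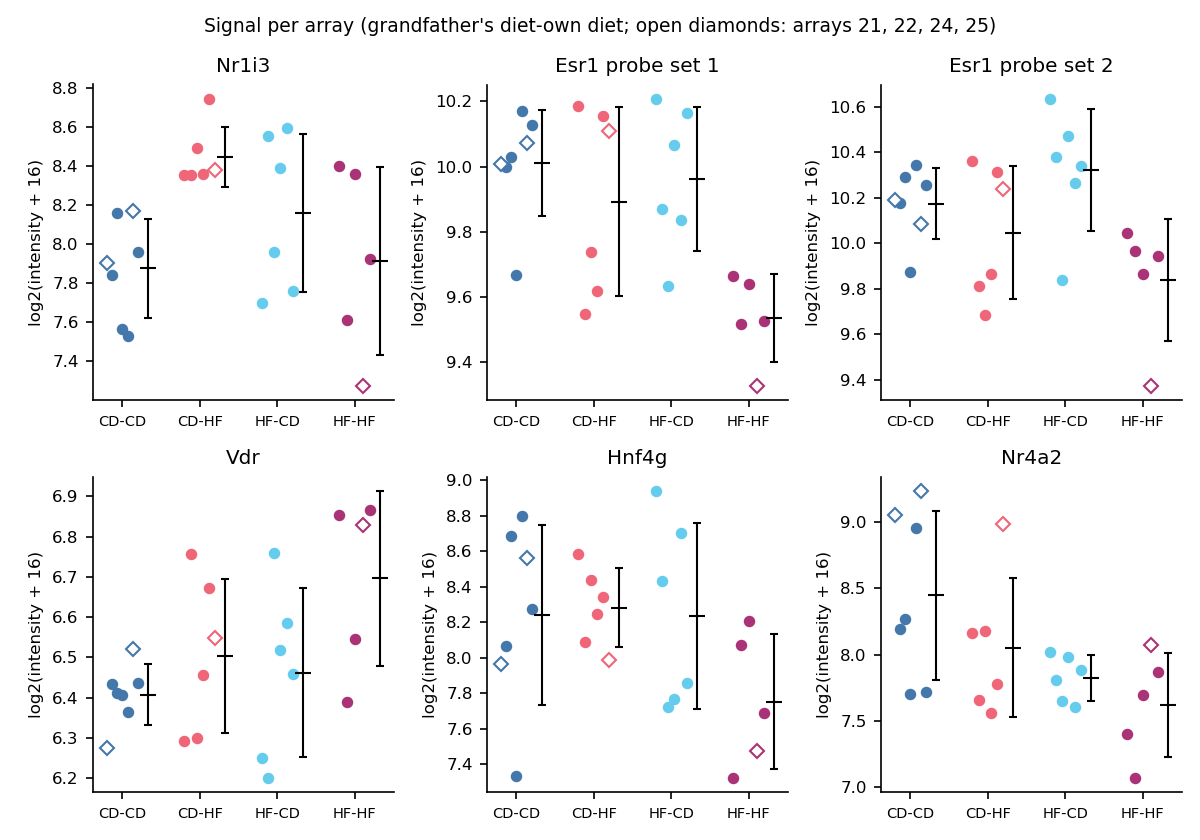
Log2(intensity + 16) on each array for Nr1i3, both Esr1 probe sets, Vdr, Hnf4g and Nr4a2 in the 4 groups, named by grandfather's diet and own diet (CD, chow; HF, high-fat). Each point is 1 female, the black bar is the group mean with its SD, and open diamonds are arrays 21, 22, 24 and 25, which all stand at the top of their groups for Nr4a2.

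Nr1i2 encodes the pregnane X receptor (PXR), the partner sensor of CAR for drugs and steroids. Its group means lay between 10.67 ± 0.29 (SD, n = 7) and 10.84 ± 0.26 (n = 6), and its own-diet differences were 0.09 ± 0.13 in the chow line and -0.16 ± 0.15 in the HFD line. Nr1i3 and Nr1i2 varied together only weakly within groups over the 24 arrays (Pearson r = 0.41, Spearman rho = 0.42, permutation p = 0.0966, 0.147 adjusted over 16 relations), and r was 0.26 without the 2 arrays farthest from the median of Nr1i3. The xenobiotic targets of these receptors were followed as a list. Of 16 PXR and CAR targets, 11 were tested, and the median own-diet difference was 0.24 in the chow line and -0.19 in the HFD line, beside 0.01 and -0.09 over all probe sets tested. After quantile normalization the medians of the list were 0.15 and -0.11, beside 0.01 and -0.003 over all. Of the 11, 8 lay above 0 in the chow line and 1 in the HFD line, against 54.4% and 28.4% of all probe sets tested.

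Abcc3, which pumps conjugated bile acids and drugs out of the cell, was the only target of the list to pass. It fell by 0.56 on average over the lines (standard error 0.11, adjusted p = 0.00348, between 0.000414 and 0.00997 with 1 array left out) and by 0.70 in the HFD line (adjusted p = 0.0327). The HFD-line call was lost without any 1 of arrays 24, 37, 38, 39, 41, 44, 45 and 46, with an adjusted p of up to 0.0922, without the 4 arrays that stood apart (0.0885) and after quantile normalization (0.0719). CAR is known to raise Abcc3. In the chow line Abcc3 gave -0.42 ± 0.15 (adjusted p = 0.35), on the other side of 0 from Nr1i3, and neither passed there. CAR activity was not measured, and a link between Nr1i3 and Abcc3 was not tested. The cytochromes Cyp3a23-3a1 and Cyp3a18, classic PXR targets, gave differences of 1.21 ± 0.32 (adjusted p = 0.135) and 1.01 ± 0.31 (adjusted p = 0.255) in the chow line, and of -0.19 ± 0.35 and -0.03 ± 0.34 in the HFD line, none past the threshold. Cyp2b1 and Cyp2b2, the classic targets of CAR, gave 0.25 ± 0.18 and -0.26 ± 0.49 in the chow line. Over the arrays within groups, Nr1i3 and Cyp2b1 had a Pearson r of 0.01 (rho = 0.06, permutation p = 0.979, the same after adjustment over 16 relations, and r = 0.02 without the 2 farthest arrays). For Cyp2b2 they were r = 0.21 and rho = 0.21 (permutation p = 0.363, adjusted 0.447, and r = 0.17 without the 2 farthest arrays). The corresponding values for Cyp3a23-3a1 were r = 0.36 and rho = 0.39 (permutation p = 0.0625, adjusted 0.111, and r = 0.35 without the 2 farthest arrays).

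**Figure D3:**
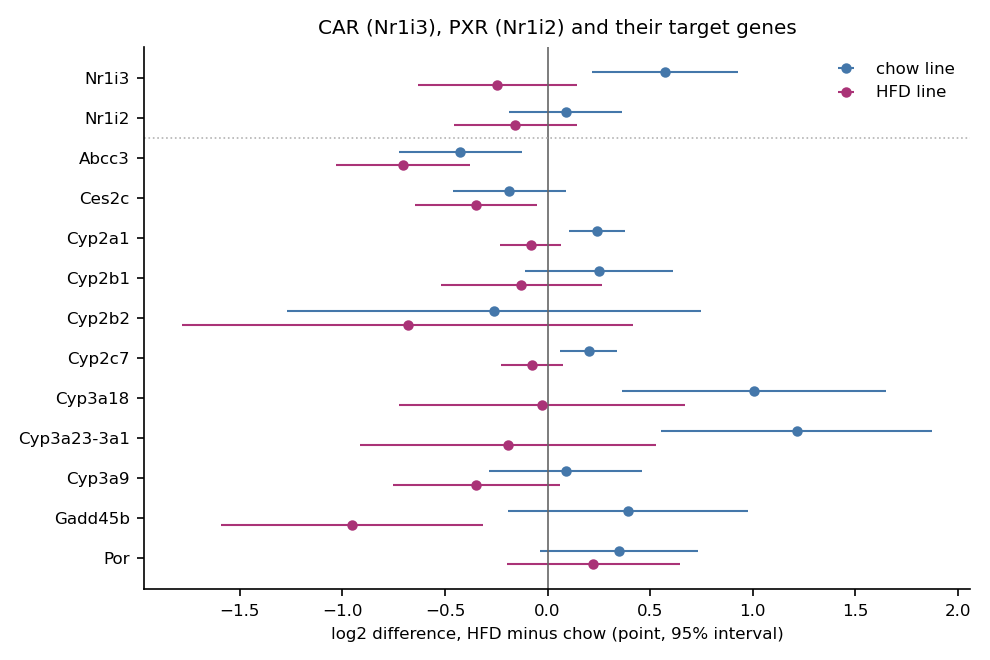
Difference in log2 signal between HFD and chow in the chow line and the HFD line for Nr1i3 and Nr1i2 (above the dotted line) and for 11 tested target genes. Points are limma estimates with 95% intervals. Cyp3a23-3a1 and Cyp3a18 lie near 1 in the chow line and near 0 in the HFD line, and Abcc3 lies below 0 in both.

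Nr1h3 and Nr1h2 encode the liver X receptors alpha and beta, which sense oxysterols and drive sterol export and fatty acid synthesis. Nr1h3 had group means of 10.76 ± 0.26, 10.94 ± 0.18, 10.77 ± 0.16 and 10.66 ± 0.21, and its own-diet differences of 0.19 ± 0.11 and -0.11 ± 0.12 did not pass in either line. Nr1h2 gave -0.04 ± 0.13 and -0.24 ± 0.14. Of 10 LXR targets 8 were tested and none passed, with a median own-diet difference of -0.01 averaged over the lines. Ppard encodes PPAR delta, a fatty acid sensor of broad tissue range, and it varied widely within groups, from 8.34 to 10.35 among chow-line females on chow. Its differences of -0.22 ± 0.26 in the chow line and 0.22 ± 0.28 in the HFD line lay well within that spread. Of 14 genes that PPAR delta and PPAR alpha both act on, 10 were tested, and Vnn1, a pantetheinase, was the only one to pass: it rose by 1.63 in the chow line (standard error 0.29, adjusted p = 0.00537) and gave 0.08 in the HFD line. Its average over the lines also passed (0.85 ± 0.22, adjusted p = 0.0378) and was lost without any 1 of 11 arrays (26, 27, 29, 22, 34, 38, 39, 42, 44, 45 and 46), with an adjusted p of up to 0.0823.

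The retinoid receptors were 6 genes. The RXRs Rxra, Rxrb and Rxrg are the shared partners of most receptors above, and the retinoic acid receptors Rara, Rarb and Rarg bind all-trans retinoic acid. Rxra had group means of 11.58 ± 0.19, 11.66 ± 0.11, 11.75 ± 0.11 and 11.69 ± 0.19, and own-diet differences of 0.08 ± 0.09 and -0.06 ± 0.09. Rxrb and Rxrg gave 0.20 ± 0.10 and 0.22 ± 0.12 in the chow line, and -0.10 ± 0.11 and -0.04 ± 0.13 in the HFD line. Without arrays 21, 22, 24 and 25 the chow-line values were 0.08 and 0.13. Those 4 arrays differed from the rest of their groups by -0.41 on average for Rxrg and by -0.35 for Rxrb. Only when these arrays were entered as a block and the arrays quantile-normalized did Rxrg pass, with an average own-diet difference of 0.16 and an adjusted p of 0.0185, where 0.09 and 0.717 were found in the setting used throughout.

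The 3 Rarb probe sets followed each other over the arrays (Pearson r of 0.86, 0.74 and 0.81 for the 3 pairs within groups, permutation p of at most 1e-04 for each, and at most 0.00032 after adjustment over 16 relations, Spearman rho of 0.84, 0.75 and 0.81). Without the 2 farthest arrays these r were 0.82, 0.72 and 0.79. Their average own-diet differences were 0.13 ± 0.11, 0.05 ± 0.11 and -0.07 ± 0.09. Rara gave -0.13 ± 0.10 and Rarg -0.05 ± 0.08. Of 13 genes of retinoid action and handling, 8 were tested and Cyp26a1, the enzyme that clears retinoic acid and a direct target of its receptors, was the only one to pass. It rose by 0.63 on average (standard error 0.15, adjusted p = 0.0292), by a similar amount in each line (0.60 ± 0.21 and 0.65 ± 0.23). The call was lost without any 1 of arrays 24, 29, 37, 40, 42, 45 and 46 (adjusted p up to 0.0595) and without the 4 arrays that stood apart (0.0807).

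Among the thyroid hormone and vitamin D receptors, Thrb, the main thyroid hormone receptor of liver, had group means between 9.86 ± 0.17 and 9.98 ± 0.11 and own-diet differences of -0.08 ± 0.09 and -0.03 ± 0.10. None of 11 tested genes of thyroid hormone action and handling passed. Vdr, the vitamin D receptor, ran from 6.27 through 6.41 to 6.52 in GpatCD-CD, from 6.29 through 6.50 to 6.76 in GpatCD-HF and from 6.20 through 6.49 to 6.76 in GpatHF-CD, and read 6.39, 6.54, 6.83, 6.85 and 6.87 in GpatHF-HF. The top 3 arrays of the last group exceeded all other arrays, and its lower 2 did not. The difference was 0.23 ± 0.11 in the HFD line and 0.17 ± 0.07 on average (unadjusted p = 0.039 and 0.0322, adjusted 0.294 and 0.313). In liver Vdr is known mainly from non-parenchymal cells.

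Esr1, the estrogen receptor alpha, which restrains lipid synthesis in female liver, came closest to the threshold on both of its probe sets. On probe set 1 GpatHF-CD ran from 9.63 through 9.97 to 10.21 and GpatHF-HF read 9.33, 9.52, 9.53, 9.64 and 9.67. On probe set 2 the HFD line on chow ran from 9.84 through 10.36 to 10.63, and on the HFD it read 9.37, 9.87, 9.95, 9.97 and 10.04. Array 41, the lowest on chow for both probe sets, was the only chow array of the line to overlap with the HFD arrays, and no receptor had groups without overlap in this line (3.04% of all probe sets did). In the chow line the medians were 10.03 on chow and 9.92 on the HFD for probe set 1, and 10.19 and 10.05 for probe set 2, and the groups overlapped throughout.

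The HFD-line difference of Esr1 was -0.43 ± 0.13 on probe set 1 and -0.48 ± 0.14 on probe set 2, or 1.34-fold and 1.40-fold lower, each with an adjusted p of 0.104. Exact two-sided permutation tests over the 11 arrays gave p = 0.013 and 0.0216 (0.039 and 0.0433 adjusted over the 6 tests). Esr1 too was singled out after its values were seen, and the adjustment over 6 tests does not cover that choice. These p-values therefore add no support to the limma result. The chow-line differences were -0.12 ± 0.12 and -0.13 ± 0.13, and the lines' difference of -0.31 ± 0.17 and -0.35 ± 0.19 did not pass (adjusted p = 0.565 and 0.56). Averaged over the lines Esr1 gave -0.27 ± 0.09 and -0.31 ± 0.10 (adjusted p = 0.106 and 0.108). Leaving out array 41 took probe set 2 past the threshold in the HFD line (-0.58, adjusted p = 0.0444) and on average (-0.35, adjusted p = 0.0422). Leaving out array 30, the lowest chow-line array on chow, took probe set 1 past it on average (-0.30, adjusted p = 0.0469). Leaving out array 24, the lowest GpatHF-HF array on both probe sets and 1 of the 4 that stood apart, gave smaller HFD-line differences of -0.38 and -0.37 (adjusted p = 0.256 and 0.296) and averages of -0.25 on both (0.193 and 0.216). Array 24 is the only 1 of the 4 in the HFD line, so leaving out all 4 must give the same HFD-line differences. Their adjusted p was then 0.22 and 0.263. The averages without all 4 were -0.26 and -0.27. After quantile normalization the HFD-line differences were -0.28 and -0.34 (adjusted p = 0.234 and 0.245), on the same side of 0.

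The 2 Esr1 probe sets followed each other within groups over the 24 arrays (Pearson r = 0.87, Spearman rho = 0.86, permutation p = 2e-05, 0.0002 adjusted over 16 relations, and r = 0.86 without the 2 farthest arrays). Of 10 estrogen receptor targets and genes of estrogen metabolism, 7 were tested, Esr1 itself among them, and none passed in any comparison. Nr3c2, the mineralocorticoid receptor, was among the steadiest members, with a pooled SD within groups of 0.13 and own-diet differences of 0.12 ± 0.09 and -0.06 ± 0.09. Pgr, the progesterone receptor, had group means between 5.58 ± 0.25 and 5.82 ± 0.22 and was not tested.

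The estrogen-related receptors Esrra and Esrrg control mitochondrial genes together with PGC1 coactivators. Their own-diet differences were 0.18 ± 0.12 and 0.09 ± 0.10 in the chow line, and -0.06 ± 0.14 and -0.07 ± 0.11 in the HFD line. On arrays 21, 22, 24 and 25 all Esrra values lay below the mean of the rest of their group, and without them the chow-line value of Esrra was 0.07. None of 11 tested ERR alpha and PGC1 targets passed. All 11 lay below 0 in the HFD line (median -0.12), which did not hold after quantile normalization, where the median was 0.02.

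Hnf4a, the receptor that holds the hepatocyte program, had group means of 11.83 ± 0.21, 12.01 ± 0.08, 11.99 ± 0.18 and 11.94 ± 0.13. It differed by 0.18 ± 0.09 in the chow line (adjusted p = 0.592) and -0.06 ± 0.10 in the HFD line. Hnf4g, its relative best known from gut and kidney, varied far more, with a pooled SD of 0.43 against 0.16. On Hnf4g, GpatCD-HF ran from 7.99 through 8.29 to 8.59, GpatHF-CD from 7.72 through 8.14 to 8.94, and GpatHF-HF read 7.32, 7.48, 7.69, 8.07 and 8.21. The last group was the lowest on average without standing clear of the others, and its difference from GpatHF-CD was -0.48 ± 0.24 (adjusted p = 0.319). Of 13 tested HNF4 alpha targets, Pck1, the gluconeogenic enzyme, was the only one to pass (-0.49 ± 0.13 on average, adjusted p = 0.0393), and the call was lost without any 1 of 16 arrays (adjusted p up to 0.0916; the arrays were 25 to 29, 31, 34, 35, 37, 38, 40, 41, 42, 45, 46 and 47) and after centring arrays on their median (0.0514).

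Nr5a2 encodes LRH-1, which drives bile acid synthesis and is held back by the small heterodimer partner SHP, the product of Nr0b2. It had the smallest pooled SD of all members, 0.11, below that of 97.9% of the probe sets tested, and own-diet differences of 0.09 ± 0.07 and -0.07 ± 0.08. Nr0b2, an atypical receptor without a DNA-binding domain and no member of the list, rose by 0.85 on average (standard error 0.18, adjusted p = 0.0109), with group means from 8.91 ± 0.61 (SD, n = 7) to 10.04 ± 0.35 (n = 6) in the chow line and from 9.57 ± 0.45 (n = 6) to 10.14 ± 0.51 (n = 5) in the HFD line. Its average passed with each array left out in turn (adjusted p 0.00558 to 0.0239). Its chow-line rise of 1.13 (adjusted p = 0.0354) was lost without any 1 of arrays 21, 25, 26, 29, 31, 32, 33, 34 and 35 (adjusted p up to 0.13) and without the 4 arrays that stood apart (0.072). Within groups Nr5a2 and Nr0b2 gave no correlation past the threshold over the 24 arrays (Pearson r = -0.06, rho = 0.04, permutation p = 0.789, 0.842 after adjustment over 16 relations, and r = -0.20 without the 2 farthest arrays). Rora, a receptor of the clock's second loop, gave 0.04 ± 0.13 and -0.19 ± 0.14. Of 12 tested ROR and clock genes 3 passed on average over the lines: Per2 and Hlf rose and Nfil3 fell. The 12 split into 7 above and 5 below 0, with a median of 0.14. Per2 rose by 0.99 ± 0.20 (adjusted p = 0.00734, up to 0.0192 with 1 array left out). The calls of Hlf and Nfil3 were lost without any 1 of 5 and 17 arrays, with adjusted p of up to 0.0655 and 0.0824. Within groups Rora and Per2 gave no correlation past the threshold (Pearson r = -0.11, rho = -0.14, permutation p = 0.621, adjusted 0.71, and r = -0.04 without the 2 farthest arrays). The labels give no hour of collection.

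The orphan receptors Nr2c1, Nr2c2, Nr2f1, Nr2f2, Nr2f6 and Nr6a1 have no settled physiological ligand. The Nr2f genes encode COUP-TF proteins, which mostly repress and mark endothelial and mesenchymal cells as well as hepatocytes. None of the 6 passed, and their differences ran from 0.01 to 0.16 in the chow line and from -0.18 to 0.05 in the HFD line. The interval bounds over the 6 genes reached from -0.22 to 0.43 and from -0.40 to 0.34. All 7 tested liver endothelial markers also failed the test on average, with a median of 0.02.

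The NR4A receptors Nr4a1, Nr4a2 and Nr4a3 carry no ligand in the usual sense and are switched on within minutes by hormones such as glucagon and by stress. Nr4a1 had the widest spread of all members. It ran from 6.50 through 7.17 to 7.42 in GpatCD-CD, from 5.52 through 6.87 to 8.02 in GpatCD-HF and from 5.92 through 6.80 to 7.90 in GpatHF-CD, and read 6.10, 6.69, 6.96, 7.01 and 7.64 in GpatHF-HF. Arrays of 1 group thus spread widely while the group means lay between 6.85 ± 0.72 (SD, n = 6) and 7.10 ± 0.32 (n = 7). Its pooled SD of 0.66 exceeded that of 99.1% of the probe sets tested, and its own-diet differences of -0.18 ± 0.33 and 0.02 ± 0.36 were far inside that spread.

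Nr4a1 and Nr4a3 varied together from animal to animal. Over 24 arrays, as deviations from the group means, Pearson r was 0.83 and Spearman rho 0.74 (permutation p = 5e-05, 0.0002 adjusted over 16 relations), and without arrays 31 and 34, the 2 farthest on Nr4a1, r was 0.75. After quantile normalization r was 0.87. Nr4a3 was dim, with group means from 5.86 ± 0.14 (SD, n = 5) to 6.00 ± 0.12 (n = 7), close to the limit of 5.72 for testing. Its SD was 0.49 in GpatCD-HF, the group of arrays 31 and 34, and at most 0.22 in the other groups. Nr4a1 and Fos, another immediate early gene, gave r = 0.64 and rho = 0.62 (permutation p = 0.00265, adjusted 0.00707, and r = 0.53 without the 2 farthest arrays). With Egr1 the values were r = 0.43 and rho = 0.57 (permutation p = 0.101, adjusted 0.147, and r = 0.56 without the 2 farthest arrays). With Junb they were r = 0.48 and rho = 0.58 (permutation p = 0.0226, adjusted 0.0452, and r = 0.57 without the 2 farthest arrays), and the adjusted p was 0.135 over the 20 arrays that did not stand apart and 0.0753 after quantile normalization. Nr4a2 and Fos gave r = 0.47 and rho = 0.50 (permutation p = 0.0206, adjusted 0.0452, and r = 0.38 without the 2 farthest arrays), with an adjusted p of 0.0564 over the 20 arrays and 0.0987 after quantile normalization. Nr4a1 and Nr4a2 gave r = 0.23 and rho = 0.26 (permutation p = 0.298, adjusted 0.398, and r = 0.15 without the 2 farthest arrays). Within the 20 arrays that did not stand apart their r was 0.39 and rho 0.45 (permutation p = 0.053, adjusted 0.106, and r = 0.30 without the 2 farthest arrays).

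**Figure D4:**
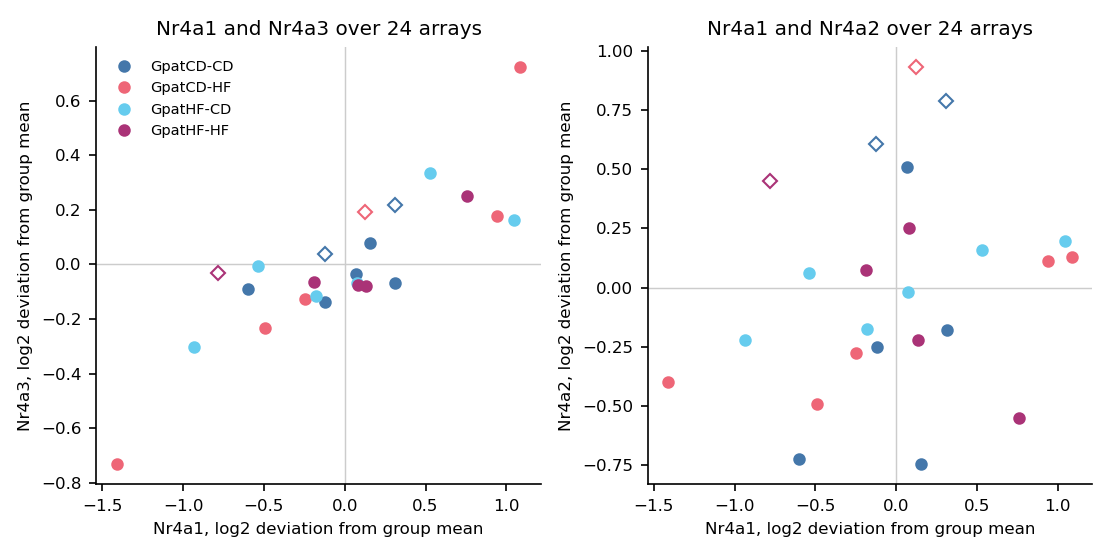
Deviation from the group mean (log2) of Nr4a3 and of Nr4a2 against that of Nr4a1, 1 point per array, coloured by group, with arrays 21, 22, 24 and 25 as open diamonds. Nr4a3, a dim probe set, rises with Nr4a1, and the 4 open diamonds lie high on Nr4a2 but at no common level on Nr4a1.

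Nr4a2 was instead high, within their own groups, on the arrays that stood apart. It read 9.05 and 9.23 on arrays 21 and 25, where the other GpatCD-CD arrays ran from 7.70 to 8.95. It read 8.99 on array 22, where the other GpatCD-HF arrays reached 8.18, and 8.07 on array 24, where the other GpatHF-HF arrays reached 7.87. On average these 4 arrays lay 0.91 above the rest of their groups. Its own-diet differences were -0.39 ± 0.24 and -0.20 ± 0.26, and -0.30 and -0.32 without these arrays. Of 13 tested immediate early genes Ier2 and Ier3 fell on average, by 0.50 ± 0.12 and 0.61 ± 0.12 (adjusted p = 0.0209 and 0.00609), with every array left out in turn (adjusted p up to 0.0485 and 0.0154). The median of the 13 was -0.33 on average over the lines, beside -0.03 over all probe sets tested. Of the 13, 12 lay below 0 and 1 above, where 36% of all probe sets lay above 0 and 1.99% passed.

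Receptors outside the list and the proteins that receptors recruit were followed in the same way. Of 15 other nuclear receptors 7 were tested, and Nr0b2 rose and Pparg fell on average over the lines. Pparg, which drives fat storage, fell by 0.63 ± 0.14 (adjusted p = 0.0158, up to 0.0347 with 1 array left out), from 6.66 ± 0.48 to 5.96 ± 0.50 in the chow line and from 6.36 ± 0.25 to 5.79 ± 0.12 in the HFD line. Both HFD-fed means lay close to the limit of 5.72 for testing, so the fall ended near the dimmest signals tested. Pparg is also expressed in macrophages, and the Kupffer cell list moved with it. All 13 tested Kupffer cell and macrophage markers lay below 0 (median -0.37), and 4 of them passed (Marco, Cd5l, Cd14 and Vsig4). Of all probe sets tested, 36% lay above 0 and 1.99% passed in this comparison. The summed intensity of the list ran from 7005 to 11551 in GpatCD-CD and 6094 to 10175 in GpatHF-CD. It ran from 4401 to 7456 in GpatCD-HF and from 5228 to 8368 in GpatHF-HF. The calls of Cd14 and Vsig4 were lost without any 1 of 14 and 16 arrays (adjusted p up to 0.0794 and 0.0811). The part of these cells in the result was not tested. Of 14 tested corepressors and coactivators only Ncoa3, a coactivator of steroid receptors, passed (-0.30 ± 0.08, adjusted p = 0.0495), and the call was lost without any 1 of 20 arrays (adjusted p up to 0.107). Ncor1, the corepressor of unliganded receptors, gave -0.12 and Ppargc1a -0.26 on average, with adjusted p of 0.455 and 0.495.

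The interaction of the diets asks whether the own-diet effect differed between the lines. None of the 33 receptor probe sets passed in limma, as none of the 15687 did (0%). At an unadjusted p under 0.05, 1 of 33 receptor probe sets passed (3.03%), against 9.71% of all. That one was Nr1i3, at -0.82 ± 0.26 (95% interval -1.34 to -0.29, unadjusted p = 0.0036, adjusted 0.295). Of the 33, 19 had an interval inside a 1.5-fold change (72% of all) and 7 lay above 0 (29.8% of all). Nr1i3 was -0.71 after quantile normalization and -0.74 without arrays 21, 22, 24 and 25, and between -0.94 and -0.66 with 1 array left out. In the HFD line alone the own-diet interval of Nr1i3 covered 0, and the value was smaller in size without array 24. The own-diet values of Nr1i3, on opposite sides of 0 in the lines, are thus only described by these numbers. They did not pass the test across all genes. PXR and CAR targets lay on the same side: all 11 had an interaction value below 0, with a median of -0.38 as deposited and -0.23 after quantile normalization, beside -0.10 and -0.01 over all probe sets tested. All hepatocyte markers shared that sign pattern as deposited, with 12 of 12 above 0 in the chow line (median 0.13) and 12 of 12 below 0 in the HFD line (median -0.06), and both medians were -0.02 and -0.01 after quantile normalization. Interaction values below 0 were not particular to PXR and CAR targets. All 10 targets shared by PPAR delta and alpha lay below 0, with medians of -0.44 as deposited and -0.26 after quantile normalization. All 11 ERR alpha and PGC1 targets and all 7 estrogen receptor genes did too, with medians of -0.21 in each list and -0.02 after quantile normalization. The LXR and retinoid lists each split into 4 above and 4 below 0.

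The last comparisons ask what the grandfather's diet left in receptor mRNA. None of the 33 passed on chow, on the HFD or averaged over own diets, and none of all 15687 probe sets did (0% in each). At an unadjusted p under 0.05, 1 of 33 receptor probe sets passed on chow (3.03%, against 9.15% of all), 6 on the HFD (18.2% against 11%) and 2 on average (6.06% against 11%). Intervals lay inside a 1.5-fold change for 29 on chow, 27 on the HFD and 30 on average, against 92.6, 90.2 and 97.2% of all. Values above 0 came to 19, 6 and 12, against 46.2, 19 and 25.8% of all. Groups that did not overlap were found for no receptor, against 0.325% of all on chow and 1.18% on the HFD. On the HFD, the median over all probe sets was itself -0.10 as deposited and -0.001 after quantile normalization, so values there are read against that shift. The 6 were Nr1i3 (-0.53), Hnf4g (-0.53), Esr1 probe set 1 (-0.36), Nr1h3 (-0.28), Nr2f6 (-0.25) and Nr5a2 (-0.17). After quantile normalization they were -0.43, -0.41, -0.21, -0.14, -0.10 and -0.02. Esr1 probe set 2 gave -0.21 as deposited and -0.07 after quantile normalization, so the pair of probe sets differed in size here.

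**Figure D5:**
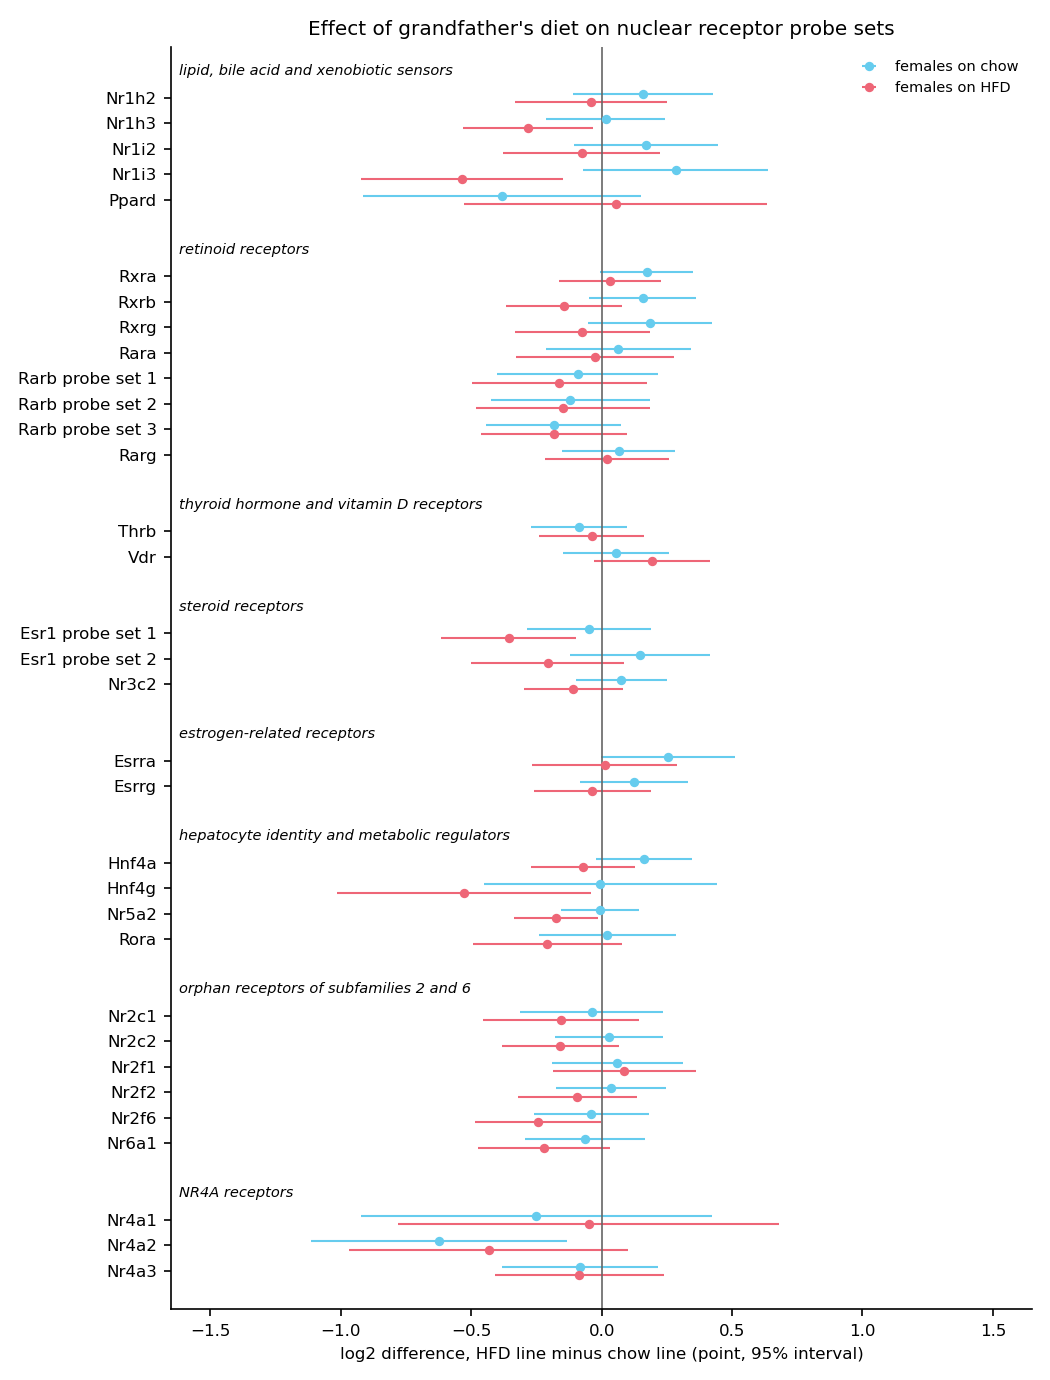
Difference in log2 signal between HFD-line and chow-line females for 33 receptor probe sets, among females on chow (7 against 6 arrays) and among females on the HFD (6 against 5). Points are limma estimates with 95% intervals. Values on the HFD lie mostly below 0, as does the median of all probe sets (-0.10), and the interval of Nr4a2 lies below 0 on chow.

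Nr1i3 on the HFD was lower in every HFD-line array than the mean of the chow line, but 2 of the 5 arrays (8.36 and 8.40) lay inside the chow line's range, and an exact two-sided permutation test gave p = 0.0563 (0.0675 over the 6 tests). On chow the difference between the lines was 0.28 ± 0.17. Nr4a2 gave the receptors' largest average difference by grandfather's diet, -0.53 ± 0.18 (unadjusted p = 0.00606, adjusted 0.321), with -0.62 ± 0.24 on chow and -0.43 ± 0.26 on the HFD. On chow all 6 HFD-line arrays, 7.60 to 8.02, lay below the chow line's mean of 8.45, 2 of them below its lowest array (7.70), and exact two-sided permutation tests gave p = 0.0408 on chow and 0.169 on the HFD (0.0612 and 0.169 over the 6 tests). Of the 4 arrays that stood apart, 3 are from the chow line, and without them the average was -0.35 and the value on chow -0.34. Rxra, the common partner, gave 0.10 ± 0.06 on average, and 0.14 and 0.16 after quantile normalization and after centring arrays (unadjusted p = 0.00345 and 0.00743, adjusted 0.361 and 0.525).

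Set side by side, the members ranged from steady to variable receptors, and the ends of that range are given here. Pooled SD within groups was 0.11 for Nr5a2, 0.13 for Nr3c2, 0.15 for Thrb and 0.16 for Rxra and Hnf4a, and it was 0.66 for Nr4a1, 0.52 for Ppard, 0.48 for Nr4a2, 0.43 for Hnf4g and 0.34 for Nr1i3. The first 5 exceeded 2.1, 8.8, 17.8, 22.3 and 28.2% of all tested probe sets. The last 5 exceeded 99.1, 98, 97.3, 96.4 and 92.5% of them, so equal differences were tested with unequal precision. Without the 4 arrays that stood apart, the pooled SD was 0.34 for Nr4a2, 0.12 for Rxrg and 0.09 for Rxrb, where all arrays gave 0.48, 0.21 and 0.17. For Nr4a1, Ppard and Hnf4g it was no smaller without them, at 0.70, 0.57 and 0.46.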

How the data were processed

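Per the file headers and the submitters' processing notes, the authors deposited 1 linear intensity for each probe set on an array, from the PLIER algorithm in Affymetrix Expression Console. No source used here gives its version, its background or normalization options, or a genome build. From them log2(intensity + 16) was taken with no further normalization, and the 25% of 20917 probe sets with the lowest mean (log2 under 5.72) were left out. The fit of the other 15687 used limma (version 3.58.1, in R 4.3.3; 4 group means over all 24 arrays, eBayes with an intensity trend), and two-sided p-values were adjusted by Benjamini-Hochberg over all of them, with a threshold of 0.05. The ± after a difference is its standard error and after a group mean its SD. The fit was tested on simulated data. A gene with several probe sets was represented in gene counts by the one with the highest mean. Of all probe sets, 18197 had 1 gene symbol, 960 several and 1760 no name here.

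Correlations used deviations from group means and 100000 permutations within groups (Python 3.11.15, SciPy 1.17.1, NumPy 2.4.6). For arrays, their number limits the precision. The limma p-values set a difference against the spread between arrays within groups, and the other p-values come from permuted arrays. Related females would make both kinds too small.

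The receptors, the companion lists of targets and the lists of cell type markers were chosen with earlier results of these data known. All receptors on a single-gene probe set are named and of each list genes that passed or had the smallest p. Fos and Junb, Egr1 and the pairs of the 16 correlations were chosen after values were seen. Alternatives were quantile normalization, centring arrays, other offsets, filters and eBayes options, and leaving out each array. Arrays 21, 22, 24 and 25 as a block with quantile normalization was added after seeing the data.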

Additional observations from a re-analysis of the deposited data

Results flagged for a closer look

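In each of 136 sets of arrays (34 receptor probe sets in 4 groups) the highest and the lowest array were compared with their nearest neighbour. In 9 of these sets an array lay farther out than Dixon's 95% limit, and arrays 24 and 34 did so on more than 1 probe set. Chance places about 1 in 20 groups past that limit. Array 21 was the lowest of GpatCD-CD on Nr1i2, at 10.0575, with the next array at 10.66. Array 33 was the highest of GpatCD-HF on Nr1i3, at 8.7454, with the next array at 8.50. Array 24 was the lowest of GpatHF-HF on Rxrg (9.7281) and on Esr1 probe set 2 (9.3741), and array 30 the lowest of GpatCD-CD on Esr1 probe set 1 (9.6689). Array 40 was the lowest of GpatHF-CD on Nr5a2, at 10.3216. In GpatCD-HF array 34 was the lowest on Nr2c2 (8.6431) and on Nr2f1 (7.2597). Array 45 was the highest of GpatHF-HF on Nr4a3, at 6.1058, with the next array at 5.82. Arrays 21 and 24 are among the 4 that stood apart on the second principal component, and no cause was tested.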

How the results depend on the processing

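The count of receptor probe sets past the threshold was 0 in all 7 comparisons and stayed at 0 under most of the 38 other settings. It became 1 in 4 of 263 combinations of comparison and setting. With arrays 21, 22, 24 and 25 as a block and quantile normalization the count for own diet averaged over the lines was 1 (Rxrg), and the cause was not tested. With 1 array left out in turn, the counts for own diet in the HFD line and for own diet averaged over the lines ranged from 0 to 1 (Esr1, without array 41 or array 30), and those of the other 5 comparisons stayed at 0. Over 231 single receptor results, 8228 of 8630 alternative values kept their direction and their side of the threshold, 398 lay on the other side of 0 without passing it, and 4 came past it in the same direction. No paired analysis was possible because no replicate number occurs in more than 1 group. The number of arrays limits what could be detected, and Nr4a1, Ppard and Nr4a2, which varied most within groups, could be tested least precisely.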
